A study of Mus musculus with 20 samples.

Results

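Mono_2 is the smaller of the monocyte clusters that the authors named in single-cell RNA-seq of mouse kidneys after ischemia reperfusion injury (IRI). Its members are all cells that carry this name in the first of the deposited annotations, 320 of 113579 cells (0.282%). Mono_1, the other monocyte cluster, holds 6984 cells, or 21.8 for each Mono_2 cell.

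Male C57Bl/6J mice, 10 to 12 weeks old, underwent clamping of both renal pedicles for 23 min (IRI short) or 30 min (IRI long) and were killed 1, 3 or 14 d later. The first annotation covers 18 libraries in 18 clusters, with 6 libraries from control mice and 2 for each ischemia time and day, and no other agent or allele is named in the labels of these groups. A second annotation of 136794 cells in 19 clusters adds 1 library from IRI long at 14 d with VX765 (100 mg/kg, an inhibitor of pyroptosis) and 1 with Liproxstatin (10 mg/kg, an inhibitor of ferroptosis). Libraries carry names such as IRF2 in their cell names, which are names of libraries and not of genes, and these do not say which numbered replicate of the sample list they are. Each library was taken as 1 mouse, since the study's methods give 2 mice per ischemia time and day.

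Monocytes are blood leukocytes made in the bone marrow. They enter injured tissue within hours to days, take up debris, release cytokines and can become macrophages or dendritic cells. In the kidney after ischemia they arrive beside granulocytes, which are short-lived first responders, and they add to the macrophages that live in the tissue. Gene expression values were not analysed here, so the name Mono_2 was not checked against marker genes. What can be described is in which libraries the cells occurred, where they lay in the UMAP maps and which name they received in the second annotation.

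The libraries held 2064 to 14320 cells. Libraries shared 1357 cell barcodes. Of the 320 Mono_2 cells, 6 had a barcode also found in another library, and 0 barcodes were shared by a pair of Mono_2 cells. Of the 6 control libraries, 5 shared barcodes with one another more often than with the other 13 libraries, and the sixth, norm5, fell with the IRI libraries. Apart from norm5, control and IRI libraries therefore differ in barcode set as well as in injury.

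No control library held a Mono_2 cell, and all 12 IRI libraries did. Across the control libraries the count was 0 of 37872 cells, compatible with at most 0.00792% (3 cells) if cells are pooled and only counting error is considered. Each control library had monocytes all the same, since Mono_1 made up 0.592 to 1.86% of cells. Mono_2 was 0 of 541 control monocytes, which allows a share of up to 0.555% on the same terms. In IRI libraries the number of Mono_2 cells ran from 2 to 134, and 6 of the 12 libraries had fewer than 10. The shares below therefore carry wide intervals (exact 95% Clopper-Pearson, counting error only).

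At 1 d after short ischemia Mono_2 was at its highest. The group's 2 libraries averaged 1.15% ± 0.557 (SD, n = 2), with 0.759% at the lower end (interval 0.595 to 0.955%) and 1.55% at the upper end (interval 1.30 to 1.83%). They gave 206 of the 320 cells (64.4%). The intervals do not overlap, so the libraries of this group differed by more than counting error.

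At 1 d after long ischemia Mono_2 was 0.164% of cells in library IRF1 (10 of 6103, interval 0.0786 to 0.301%) and 0.0255% in library IRF5 (2 of 7847, interval 0.00309 to 0.0920%). The lower IRI short library was 4.63-fold above the higher IRI long library, and the group means, 1.15% and 0.0947%, were 12.2-fold apart. Leaving out 1 library at a time, an alternative chosen after seeing the data, moved this ratio to between 7.04 (without IRF5) and 45.2 (without IRF1). The groups did not overlap.

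At 3 d the order was not the same. IRI short gave 0.759% in IRF11 (31 of 4086, interval 0.516 to 1.08%) and 0.202% in IRF3 (6 of 2967, interval 0.0742 to 0.440%). IRI long gave 0.397% in IRF4 (19 of 4784, interval 0.239 to 0.620%) and 1.11% in IRF7 (23 of 2064, interval 0.708 to 1.67%). The groups overlapped at 3 d, with a mean for IRI long that was 1.57-fold that of IRI short, or 0.827-fold without IRF7, 0.996-fold without IRF3 and 3.74-fold without IRF11.

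At 14 d Mono_2 was low in every IRI library. IRI short gave 0.0641% in IRF10 (7 of 10917) and 0.0664% in IRF8 (3 of 4518). IRI long gave 0.0709% in IRF12 (5 of 7050) and 0.111% in IRF9 (8 of 7229). The 4 libraries averaged 0.0780% ± 0.0219 (SD, n = 4), and their counting intervals overlap one another.

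**Figure D1:**
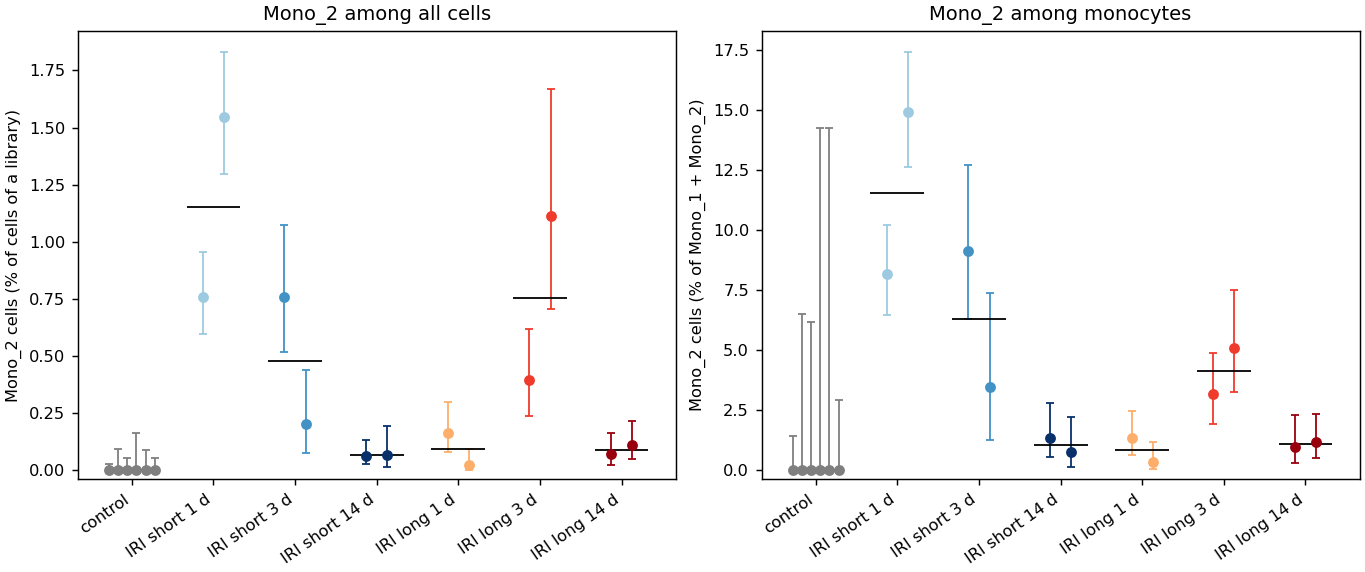
Mono_2 cells in each of 18 libraries as percent of all cells (left) and as percent of Mono_1 and Mono_2 cells together (right), by group. Points are libraries with exact 95% binomial intervals and black lines are group means; the 6 control libraries are at 0, the 2 IRI short 1 d libraries are at 0.759 and 1.55% of cells and the 2 IRI long 1 d libraries at 0.164 and 0.0255%.

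The first question is whether injury was accompanied by Mono_2 cells at all. In this comparison barcode set and injury coincide for every control library but norm5. The mean percent of cells was 0.566% ± 0.578 after short ischemia and 0.314% ± 0.413 after long ischemia (SD, n = 6 each), against 0 in 6 control libraries. Measured against the share that 3 cells among all control cells would give, this is 71.5-fold higher in IRI short and 39.6-fold higher in IRI long. That limit pools the cells of 6 libraries and leaves out the spread between them, so the folds are not lower bounds. In single control libraries a count of 0 allows 0.0209 to 0.132%, and 0.0450% in norm5. A two-sided exact permutation test over libraries gave p = 0.00216 for each, the smallest that 6 against 6 libraries can give, and 0.00866 after Benjamini-Hochberg adjustment over 8 comparisons. IRI mice were higher in 6 of 6 libraries of either ischemia time. Single libraries set much of the mean percent of cells. Leaving out 1 IRI library at a time brought the difference from control down to 0.370 percentage points in IRI short and, without IRF7, to 0.154 in IRI long. The call was lost without any 1 control library, where the adjusted permutation p was 0.165 and 0.130, a loss that the two-sided rule for unequal groups decides and that limma did not show.

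Many clusters changed in these comparisons. With limma on the logit of the fraction, 12 of 18 clusters (66.7%) passed an adjusted p of 0.05 in IRI short against control, and 15 of 18 (83.3%) in IRI long against control, Mono_2 among them in both. Of these, 9 were higher and 3 lower in IRI short, and 9 were higher and 6 lower in IRI long. With immune and other clusters taken apart, the Mono_2 estimate against control fell from 3.53 to 1.97 in IRI short (limma, adjusted p = 2.97e-05). In IRI long it fell from 2.89 to 1.01 (limma, adjusted p = 0.00851). Every control library held 0 Mono_2 cells, so its logit is set by the 0.5 cells added and the size of the denominator. Over all cells, adding 0.1 cells gave estimates of 5.10 after short and 4.44 after long ischemia, and adding 1 cell gave 2.89 and 2.27. The sign and the call held, but the size of these estimates depends on this choice. The fall therefore cannot be read as a smaller increase of Mono_2 among immune cells. In a control library a rare cluster can also be missed. At the mean level of the 14 d IRI libraries, 5 of the 6 control libraries would be expected to hold 3 or more Mono_2 cells. This takes capture to be equal in both barcode sets, which was not tested. Of the 12 IRI libraries, 11 lay by their point values above the 0.0450% that a count of 0 allows in norm5. That control library groups with the IRI libraries by barcodes. Among these 11, the intervals of IRF8, IRF10 and IRF12 start below it, at 0.0137, 0.0258 and 0.0230%. Whether barcode set has a part in the absence from controls was not tested.

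The second question is whether the ischemia time changed Mono_2. Over all days it did not pass the test. The mean percent of cells was 0.253 percentage points lower in IRI long than in IRI short in the means above, with p = 0.407 in an exact permutation test within days and 0.418 after adjustment over 8 comparisons. The difference on the logit scale was -0.64 (limma, SE 0.354, interval -1.38 to 0.10, adjusted p = 0.224), and 5 of 18 clusters (27.8%) passed in this comparison. Counting only the Mono_2 cells that the second annotation calls Fibro, an alternative chosen after seeing the data, the difference was -0.87 and passed (limma, adjusted p = 0.0487). In the exact permutation test within days the same cells gave -0.227 percentage points and did not pass (p = 0.389, adjusted 0.418).

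Taken by day, the ischemia times differed in Mono_2 at 1 d. The logit of the fraction was lower by 2.70 in IRI long than in IRI short (limma estimate -2.70, SE 0.613, interval -3.99 to -1.41, adjusted p = 0.00601). Mono_2 was the 1 cluster of 18 (5.56%) that passed in this comparison. With 2 libraries against 2, each of the 4 carries weight. Leaving out each of the 18 libraries in turn gave estimates of -3.54 to -1.86 with adjusted p up to 0.124, and the call was lost in 2 of these fits, 1 without an IRI short library and 1 without IRF5 (-1.86, adjusted p = 0.117). Limma pools the spread over groups here, so the library left alone is assumed to vary like the others.

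At 3 d the estimate was 0.51 (limma, SE 0.613, interval -0.78 to 1.80, adjusted p = 0.843), and 0 of 18 clusters (0%) passed, with 3 at an unadjusted p under 0.05. The sign of this estimate turned without IRF3 (-0.12) and without IRF7 (-0.01). At 14 d it was 0.27 (limma, SE 0.613, interval -1.01 to 1.56, adjusted p = 0.794), where 6 of 18 clusters (33.3%) passed. These intervals leave room for differences of either sign at 3 and 14 d.

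The contrast between days was tested as well. The gap between IRI long and IRI short at 14 d, less its average at 1 and 3 d, was 1.37 (limma, SE 0.751, interval -0.21 to 2.94, adjusted p = 0.218), and the 1 of 18 clusters (5.56%) that passed was Myofib, the myofibroblasts. A contrast of 1 d against 3 and 14 d, added after the counts were seen, was -3.09 (limma, SE 0.751, interval -4.67 to -1.51, adjusted p = 0.0114), and Mono_2 was the 1 of 18 clusters (5.56%) that passed it. This contrast also lost its call in 2 of the 18 fits that leave out 1 library, 1 without an IRI short library at 1 d and 1 without IRF5 (-2.25, adjusted p = 0.208).

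For the other myeloid clusters the estimates at 1 d did not pass. For Mono_1 the estimate of IRI long less IRI short was 0.11 (limma, SE 0.432, adjusted p = 0.946), and its mean share was 1.13-fold that of IRI short. Mono_1 made up 8.51 and 8.83% of cells in IRI short at 1 d, and 12.0 and 7.63% in IRI long, so these groups overlapped. For Macro, the macrophages, the estimate was 0.03 (limma, interval -1.01 to 1.08, adjusted p = 0.946). For Granul_1 and Granul_2, the granulocytes, it was 0.69 and 0.63 (limma, SE 0.809 and 0.724, adjusted p = 0.743 for both). Whether Mono_2 differed from each of these clusters was not tested.

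At 14 d the granulocyte cluster Granul_2 was among the 6 of 18 clusters (33.3%) that passed. Granul_2 was higher in IRI long by 2.36 on the logit scale (limma, SE 0.724, adjusted p = 0.0130), while the estimate for Mono_2 was 0.27. For Granul_2 the contrast of 14 d against 1 and 3 d did not pass (1.77, limma, SE 0.886, adjusted p = 0.209). Mono_1 at 3 d had an estimate of 1.00 (limma, SE 0.432, adjusted p = 0.233).

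**Figure D2:**
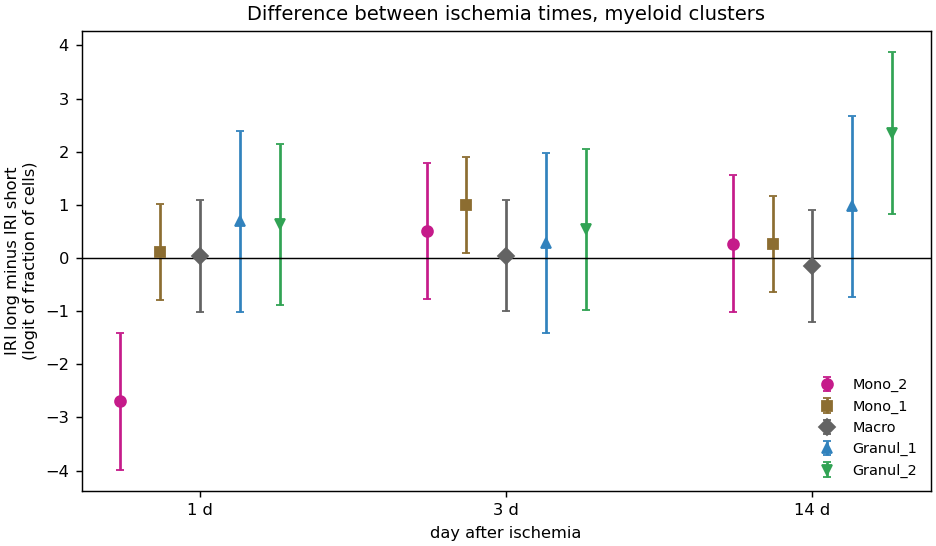
Difference between IRI long and IRI short in the logit of the fraction of cells for 5 myeloid clusters at 1, 3 and 14 d. Points are limma estimates and bars 95% confidence intervals from 2 libraries against 2; Mono_2 at 1 d lies at -2.70 with an interval below 0, and Granul_2 at 14 d lies at 2.36 with an interval above 0.

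Since a share of all cells also falls when other cells become more numerous, Mono_2 was measured within the monocytes too. At 1 d it was 8.19 and 14.9% of Mono_1 and Mono_2 cells in the IRI short libraries and 1.35 and 0.333% in the IRI long libraries. At 3 d it was 9.12 and 3.47% in IRI short and 3.17 and 5.08% in IRI long. At 14 d the 4 libraries lay between 0.771 and 1.36%. Both measures thus separate the ischemia times at 1 d and overlap at 3 d.

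Over all days the share of monocytes that were Mono_2 averaged 6.30% ± 5.45 after short and 2.02% ± 1.77 after long ischemia (SD, n = 6 each). The difference did not pass an exact permutation test within days (p = 0.102, adjusted 0.204). As percent of all myeloid cells the means were 1.70% ± 1.86 and 0.573% ± 0.742 (SD, n = 6 each), with p = 0.213 in the exact permutation test and 0.341 after adjustment.

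The third question is how Mono_2 changed with time. Over both ischemia times the 1 d libraries averaged 0.624% ± 0.693, the 3 d libraries 0.618% ± 0.403 and the 14 d libraries 0.0780% ± 0.0219 (SD, n = 4 each). Within IRI short the means in order of day were 1.15, 0.480 and 0.0653%, and the first was 17.7-fold the last. Within IRI long the highest mean was at 3 d, 0.756%, which was 8.32-fold the 0.0908% at 14 d, and the mean at 1 d was 0.0947%. The 2 IRI long libraries at 1 d lay on either side of those at 14 d. These folds rest on few libraries. With 1 library left out at a time the 17.7-fold ran from 11.6 to 23.7, and the 8.32-fold from 4.37 (without IRF7) to 12.3 (without IRF4).

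None of the 3 comparisons of a day with the other days passed. The mean at 14 d was below that of 1 and 3 d by 0.543 percentage points (exact permutation test within ischemia times, two-sided, p = 0.0622, adjusted 0.166). With the two-sided p taken as double the smaller one-sided p, a choice made after seeing the data, this was 0.0267 (adjusted 0.0711). The differences of 1 d and 3 d from the other days were 0.276 and 0.267 percentage points (exact permutation p = 0.396 and 0.418, adjusted 0.418 for both).

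The clusters with the highest positive Spearman's rho with Mono_2 over the 12 IRI libraries were Mono_1, Myofib and B cell, by the logit fractions of the other 17 clusters. The relation farthest from 0 was negative, with PT S3, a proximal tubule cluster (rho -0.469 and r -0.541, permutation p = 0.128 and 0.0712, adjusted 0.905 and 0.694). Without the 2 libraries farthest from the median PT S3 level r was -0.340. For each cluster below, the 2 farthest libraries are likewise those farthest from that cluster's own median level. For Mono_1 Pearson's r was 0.479 (permutation p = 0.115) and rho 0.434 (permutation p = 0.162), with adjusted values of 0.694 and 0.905 over 17 clusters. Without the 2 libraries farthest from the median Mono_1 level r was 0.160, so much of the relation rests on those libraries. For Myofib r was 0.474 and rho 0.420 (permutation p = 0.123 and 0.178, adjusted 0.694 and 0.905), and r without the 2 farthest libraries was 0.387. For B cell r was 0.431 and rho 0.350 (permutation p = 0.163 and 0.266, adjusted 0.694 and 0.905), and r without the 2 farthest libraries was 0.317. With percent of cells in place of the logit, r for B cell was 0.105, below the 0.575 of PC and the 0.423 of LOH, clusters named here after their values were seen. None of the 17 relations passed the adjusted threshold. Within IRI short r with Mono_1 was 0.597 and within IRI long 0.933 (n = 6 each, no test).

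In the first UMAP map Mono_2 formed a small, dense body of its own. This map and the clusters come from the same integrated expression, so these positions are a description. Of the 30 nearest cells to a Mono_2 cell, 93.5% on average were Mono_2, 4.39% Mono_1 and 1.82% Granul_2. All 30 were Mono_2 for 245 of the 320 cells (76.6%). The median distance of a cell from the centre of its cluster was 0.274 map units for Mono_2 and 1.39 for Mono_1. The centre lay 3.65 map units from that of Granul_2, 3.71 from that of Mono_1 and 3.74 from that of B cell, and thus between a granulocyte and a monocyte cluster.

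Some cells lay apart from this body. A group of 7 Mono_2 cells was more than 2 map units from the centre, within the area of Mono_1, with 3 from IRI short 1 d, 2 from IRI short 14 d and 2 from IRI long 3 d. Fewer than 15 of the 30 nearest cells were Mono_2 for 18 of the 320 cells. These were 6 of 218 cells from 1 d, 6 of 79 from 3 d and 6 of 23 from 14 d.

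Libraries were not evenly mixed inside the cluster. Among the Mono_2 neighbours of Mono_2 cells, 36.7% came from the same library, against 24.7% if libraries were mixed in proportion to their cells. For IRF2 the share was 28.6% against 22.5%, and for IRF7 19.6% against 7.19%. Other libraries showed no excess, such as IRF10 with 2.01% against 2.19% and IRF9 with 2.49% against 2.50%. Neighbours from the other library of the same group were not compared.

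**Figure D3:**
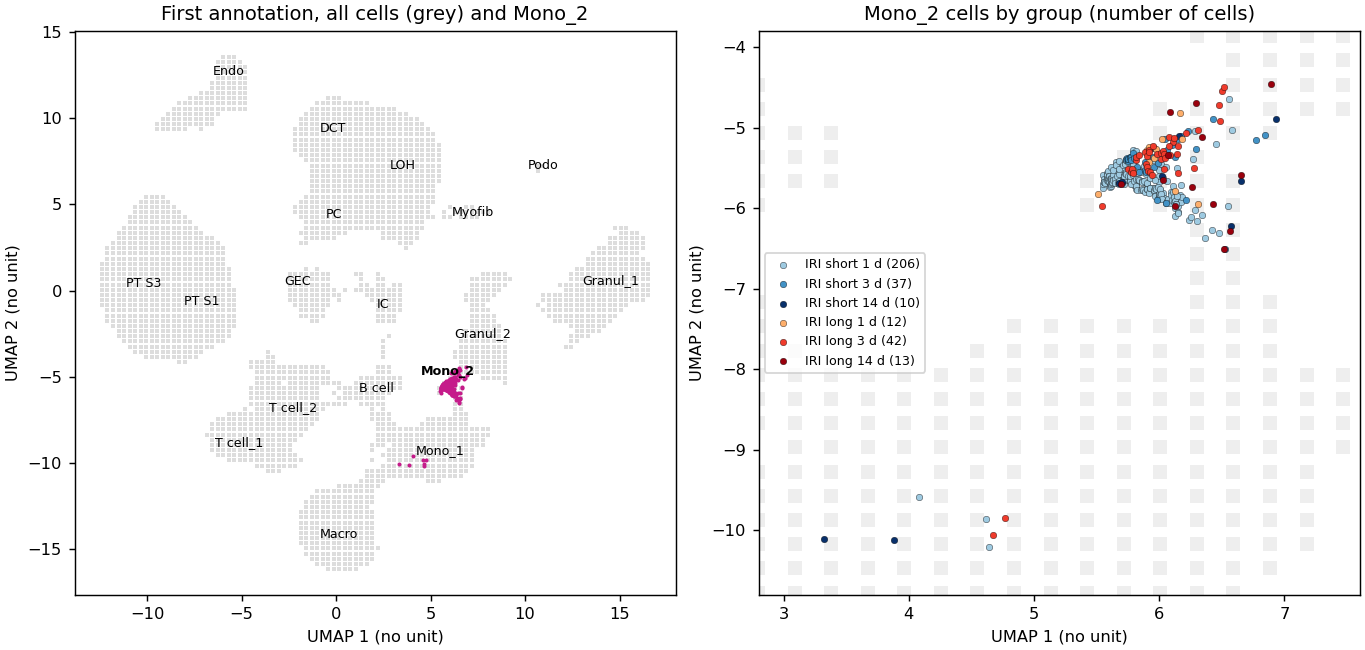
UMAP of the first annotation (axes without unit), with the area of all 113579 cells in grey and cluster names at the median position of their cells (left), and the 320 Mono_2 cells enlarged and coloured by group (right). Most Mono_2 cells lie in 1 dense body between Granul_2 and Mono_1, while 7 lie within the area of Mono_1.

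The second annotation, built on the 20 libraries, has no cluster made mainly of these cells. It named 265 of the 320 Mono_2 cells Fibro (82.8%), 33 PT (10.3%), 18 Macro (5.63%), 2 Neutro_2, 1 PCT and 1 PST. PT, PCT and PST are names for proximal tubule cells, the epithelial cells that reabsorb most of the filtrate and are injured first by ischemia.

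The name Fibro would stand for fibroblasts, the matrix-producing cells of the interstitium, but most of its cells carried a monocyte name in the first annotation. Of its 7425 cells, 6574 (88.5%) were Mono_1 in the first annotation, 265 (3.57%) were Mono_2, 220 (2.96%) had other first names and 366 (4.93%) came from the inhibitor-treated libraries. It took in 94.1% of Mono_1. The second annotation thus joins Mono_1 and most of Mono_2, which the first keeps as separate clusters, under another name.

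The second name varied with the library. In IRI short at 3 d 35 of 37 Mono_2 cells were Fibro, and in IRI long at 3 d 38 of 42. At 14 d the count was 9 of 10 in IRI short and 11 of 13 in IRI long. At 1 d the count was 168 of 206 in IRI short but 4 of 12 in IRI long, where 6 cells were PT. Of the 33 cells named PT, 19 came from IRF2, and of the 18 named Macro, 15 came from IRI short at 1 d.

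With only Fibro-named Mono_2 cells the estimate of IRI long less IRI short at 1 d was -3.27 on the logit scale (limma, adjusted p = 0.000322), an alternative chosen after seeing the data.

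In the second map the Mono_2 cells came apart into several places. Of the 30 nearest cells, 57.5% were Mono_2, 20.1% Mono_1, 5.96% cells of the inhibitor-treated libraries and 5.55% T cell_2. For 201 of the 320 cells (62.8%) at least 15 of the 30 neighbours were Mono_2, and all 201 were named Fibro. Another 64 Fibro-named cells lay elsewhere, and 33 PT and 18 Macro cells lay in the areas of those clusters. For 50 cells (15.6%) no neighbour was Mono_2.

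The share that stayed together varied. In IRI short at 1 d it was 128 of 206, with 27 of 72 in IRF2. At 3 d it was 30 of 37 in IRI short and 31 of 42 in IRI long. At 14 d it was 5 of 10 in IRI short and 4 of 13 in IRI long, and at 1 d in IRI long 3 of 12. In IRI long at 1 d, 8 of 12 cells had no Mono_2 neighbour in the second map although none had fewer than 15 in the first.

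**Figure D4:**
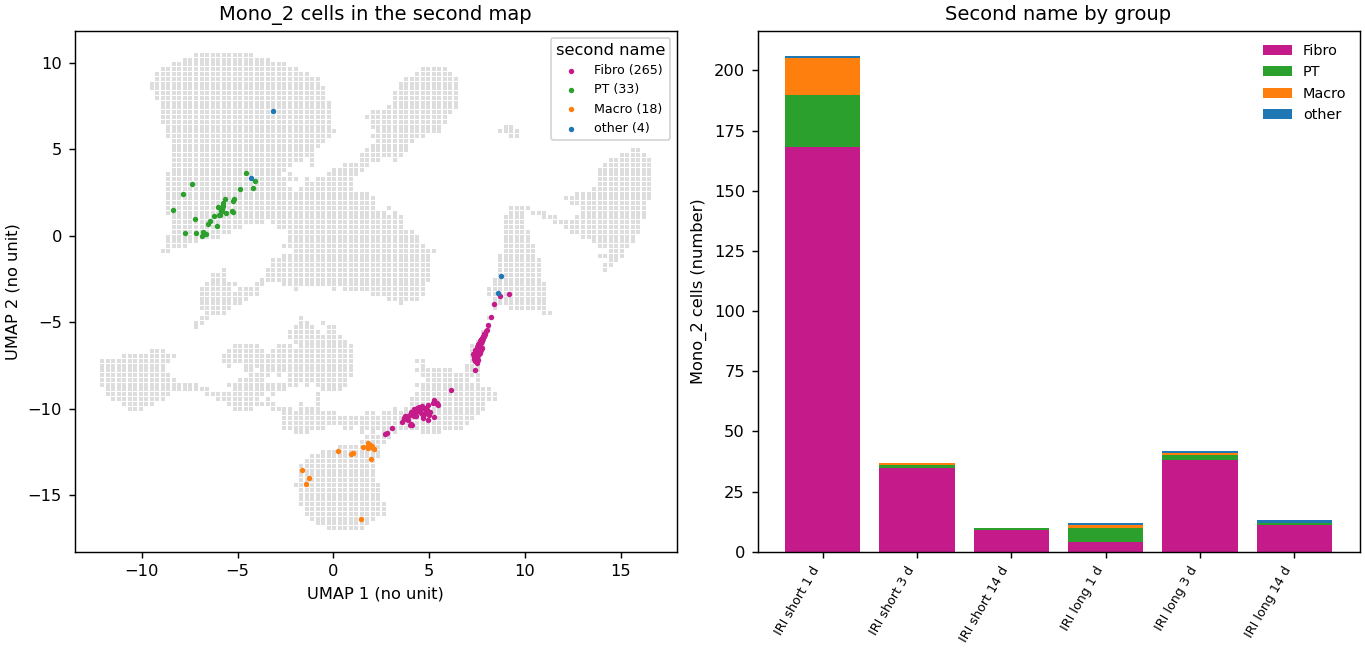
The 320 Mono_2 cells in the UMAP of the second annotation (axes without unit), coloured by second name over the area of all cells in grey (left), and their number by group and second name (right). Of 320 cells 265 were named Fibro, and IRI short at 1 d holds 22 of the 33 PT and 15 of the 18 Macro cells.

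The second map also shows which other cells lay where Mono_2 did. Cells were counted if at least 15 of their 30 nearest cells from the first 18 libraries were Mono_2, a measure chosen after seeing the data. There were 237 such cells, of which 203 were Mono_2 and 16 Mono_1, and 235 were named Fibro. The control libraries held 2 of them, 1 in norm2 and 1 in norm4.

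The inhibitor-treated libraries held 9 of these cells. With VX765 it was 6 of 10610 cells (0.0566%, interval 0.0208 to 0.123%) and with Liproxstatin 3 of 12605 (0.0238%, interval 0.00491 to 0.0695%). IRI long at 14 d without inhibitor held 5 of 7050 (0.0709%) and 2 of 7229 (0.0277%). The inhibitor-treated mice belong to a separate experiment, and no library of its vehicle group is labelled in the sample list, so the experiment and the inhibitor cannot be told apart. These intervals overlap, and with 1 library for each inhibitor there is no test.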

How the data were processed

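The study's methods name 10X 3' v3 chemistry for the single-cell suspensions of mouse kidney. Whether this holds for the 5 control libraries that stand apart by barcodes was not tested. The authors aligned reads to mm10 with Cell Ranger, kept cells with 200 to 3000 genes and at most 50% mitochondrial reads in Seurat, removed doublets, integrated libraries with LIGER and named Louvain clusters (resolution 0.25) by hand from marker genes. The sources used here describe the second annotation in less detail. The deposited tables give per cell a cluster name and a treatment group (text, in no unit), and UMAP coordinates, a score without unit. Depth is the number of cells per library.

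Libraries were read from cell names and grouped by the labels of their cells. A library's Mono_2 share was its Mono_2 cells over all its cells. Shares were compared with exact permutation tests over libraries (924 arrangements, 216 within days, and 225 of days within ischemia times), adjusted over 8 comparisons with the Benjamini-Hochberg method. The logit of each cluster's fraction, after 0.5 cells were added to its count, was fitted with 1 mean for each of 7 groups (limma 3.58.1, R 4.3.3), and p-values were adjusted over all 18 clusters at 0.05. The limma script was tested on simulated data. Correlations used 100000 resamples. Neighbours were the 30 nearest cells in a map. Python 3.11.15, numpy 2.4.6, pandas 2.3.3, scipy 1.17.1 and matplotlib 3.10.9 were used.

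Clusters named were Mono_1, Macro, Granul_1 and Granul_2, the 3 with the highest Spearman's rho with Mono_2, and second names with at least 1% of Mono_2 cells. Myofib in the contrast of days was named after its value was seen. Members and lists were chosen with earlier results of these data known. P-values measure the spread between libraries. Alternatives were other scales (percent, arcsine square root, centred log-ratio), other denominators, other numbers of cells added, filters, the pooled share, thinning and leaving out each library. Those added after seeing the data are named as such. Some results of 1 library are not reported here.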

Additional observations from a re-analysis of the deposited data

Results flagged for a closer look

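A contrast of the gap between the ischemia times in Mono_2 passed its threshold after it was chosen for the gap seen at 1 d, so it is a description more than a test. The contrast of 1 d against 3 and 14 d was -3.09 on the logit scale (limma, SE 0.751, adjusted p = 0.0114), and a joint test of the change of this difference over the 3 days gave F = 8.50 (limma, adjusted p = 0.0222), with 2 of 18 clusters passing. Both were added after seeing the data, while the planned contrast of 14 d against 1 and 3 d did not pass (1.37, limma, adjusted p = 0.218). The groups did not overlap at 1 d, and the contrast lost its call in 2 of 18 fits that leave out 1 library, 1 of them without IRF5. The second name moved with this result, since 4 of 12 Mono_2 cells were Fibro in IRI long at 1 d against 168 of 206 in IRI short, and its part in the result was not tested beyond the alternative with Fibro-named cells alone.

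Of the VX765 library, which no comparison uses, 0.0566% of cells lay among Mono_2 cells in the second map, against 0 to 0.0247% in the 6 control libraries. This rests on 6 cells, and its interval (0.0208 to 0.123%) overlaps those of control libraries, where the highest value is 1 cell in norm4 (interval 0.000624 to 0.137%).

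The control library Scl held 14320 cells, far from the other 5 control libraries by Dixon's criterion, which flags about 1 in 20 groups by chance. With 0 Mono_2 cells in it, the limit of a 3-cell count is 0.0209%.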

How the results depend on the processing

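For 19 results, 117 values were computed under alternatives other than leaving out a library, and 115 kept their direction and, where tested, their side of the threshold. This count includes values that could not change. The filter of 10 cells in 2 libraries kept all 18 clusters, and thinning leaves the expected share as it was. IRI long against IRI short at 14 d turned to -0.21 with immune and other clusters taken apart. Over all days this comparison passed in limma with Fibro-named Mono_2 cells alone (-0.87), but not in the exact permutation test (p = 0.389, adjusted 0.418). The difference at 1 d had an adjusted p of 0.000322 to 0.0120 over these alternatives.

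Leaving out each library in turn kept 222 of 240 values. At 1 d the estimates ran from -3.54 to -1.86 and the contrast of 1 d against 3 and 14 d from -3.93 to -2.25, with the call lost in 2 of 18 fits each, 1 of them without IRF5. At 3 d they ran from -0.12 to 1.14. The permutation differences from control ran from 0.370 to 0.667 in IRI short and from 0.154 to 0.371 in IRI long. Without any 1 of the 6 control libraries these differences stayed at 0.566 and 0.314, but the adjusted p rose to 0.165 and 0.130. In those tests of 5 against 6 libraries the two-sided p taken as double the smaller one-sided p was 0.00433 unadjusted, so the lost calls depend on how the other side is counted in groups of unequal size. In the limma comparisons with control no call was lost without any 1 library.

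No paired analysis was possible because cell names carry library names and not the replicate numbers of the sample list. The second annotation could not be used in place of the first, since it has no cluster made mainly of Mono_2 cells. Thinning to equal depth leaves the expected share unchanged by construction. The 6 IRI libraries with fewer than 10 Mono_2 cells include the deepest IRI library, IRF10 (7 of 10917 cells). The shallowest, IRF7, held 23 of 2064.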

Other observations

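The cluster Fibro of the second annotation, which took in most monocytes, made up 2.12% of cells with VX765 (interval 1.85 to 2.41%) and 1.12% with Liproxstatin (interval 0.942 to 1.32%). In IRI long at 14 d without inhibitor it made up 6.85 and 8.83%, and in the 6 control libraries 0.592 to 1.98%. The inhibitor-treated mice come from a separate experiment with no labelled vehicle library here, so the experiment and the inhibitor cannot be told apart, and with 1 library for each inhibitor there was no test.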
